A study of Mus musculus with 14 samples.

Results

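The 2 arrays of Ly6D+ common lymphoid progenitors (CLP) were set against the 2 arrays of Ly6D- CLP, chosen by their titles from a series of 14 arrays. Both groups were sorted from the bone marrow of C57Bl6 mice aged 8 to 12 weeks that had received no transplant and no treatment, and they differ, as far as the labels say, in the surface protein Ly6D alone. The other gates of the sort, the number of mice behind an array and any pooling are not given in the sources used here. The series also held 2 arrays each of ProB and PreB cells from such mice. A further 3 arrays each were of Pax5KO and wild type fetal liver cells engrafted in the marrow of irradiated mice. All of these entered the estimate of the spread. RNA was read on an Affymetrix 3' array of 45101 probe sets. Of these, 34945 carried 1 gene symbol and gave 18193 genes, each read by its brightest probe set.

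The CLP is a marrow progenitor that can still give rise to B, T, natural killer (NK) and dendritic cells. Appearance of Ly6D on its surface is known to separate cells that keep these options from cells that turn to the B lineage. That turn runs through a chain of transcription factors: the E protein E2A and FOXO1 act with EBF1, EBF1 opens the B lineage program and helps to switch on Pax5, and Pax5 then commits the cell. Among the early targets of EBF1 are the genes of the surrogate light chain and the signalling chain that together form the pre-B receptor.

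Values are log2 signals as deposited, from 2.32 to 16.08, with a floor at the lowest value that 33.4% to 34.6% of the probe sets of each CLP array held. A group is called at the floor where both of its arrays lay within 0.5 of that value. A difference from such a group is only the least by which the transcript changed. Values at the floor also hardly vary, so groups there lower the standard error and p of a gene. Differences are Ly6D+ minus Ly6D- CLP with the standard error (SE) of the limma fit, and a gene is called at a Benjamini-Hochberg adjusted p under 0.05 over all 18193 genes. In sorted bulk cells, a lower share of cells that express a gene and less RNA of it per cell cannot be told apart.

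The labels held up in the data. Ly6d, the gene behind the sort, read 11.25 and 10.30 in Ly6D+ CLP, against 3.61 and 3.02 in Ly6D- CLP. This gap of 7.46 is what the sort selected and is given without a test. Both groups carried the transcripts that define a CLP. Flt3, the receptor kinase that early lymphoid progenitors depend on, read 11.91 and 12.33 in the Ly6D+ group and 12.49 and 12.29 in the Ly6D- group. Il7r, the receptor for the lymphoid growth factor IL-7, read 11.83 and 12.00 in the Ly6D+ group and 11.003 and 11.54 in the Ly6D- group. Ms4a1 and Fcrla, which mark later B cells, were at the floor on all 4 arrays.

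Some arrays stood apart. Ly6D- CLP array 2 alone carried calprotectin and later granule transcripts of neutrophils, described with the myeloid genes. The 3' end of the actin control exceeded its 5' end by 3.56 and 5.57 on the Ly6D+ CLP arrays and by 3.004 and 3.55 on the Ly6D- CLP arrays. Ly6D+ CLP array 2 thus had the largest gap of the 4. The part of this measure of RNA quality in the results was not tested beyond leaving out each array. Xist, the X-inactivation transcript, was at the floor on all 4 CLP arrays while the Y-linked Eif2s3y read between 9.08 and 9.87, so the CLP groups did not differ in sex. Over genes, Ly6D- CLP array 1 correlated slightly more with Ly6D+ CLP array 1 (r = 0.962) than with the other Ly6D- CLP array (r = 0.955).

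Of all genes, 264 were called (1.45% of those tested), 148 higher in Ly6D+ CLP (0.813%) and 116 lower (0.638%). An unadjusted p under 0.05 was found for 1809. Differences over 3 in size were reached by 43 of the higher and 22 of the lower genes. For 26 of the higher genes only the Ly6D- CLP group was at the floor, and for 38 of the lower genes only the Ly6D+ CLP group was. Neither group rose above the floor for a further 29 called genes, which are not discussed. The calls, and the lack of one, rest on the spread shared over all 14 arrays, grafts included. With only the 4 CLP arrays in the fit, 1 gene was called, Ptpro, a receptor phosphatase (difference -2.31). It was at the floor on both Ly6D+ CLP arrays, which lowers its spread.

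Of 22 measured transcription factors of the B lineage, 4 rose in Ly6D+ CLP and none fell (18.2% called, against 1.45% over all genes). Ebf1 and Pou2af1 had been named beforehand as markers of Ly6D+ CLP, and the list was chosen with earlier results of these data known. This share is thus partly built in. Ebf1, the specification factor of the B lineage, read 11.39 and 11.68 in Ly6D+ CLP, against 6.55 and 5.24 in Ly6D- CLP. The groups lay far apart, with a difference of 5.64 (SE 0.50, limma adjusted p = 0.000888), or 49.8-fold on the array's scale. Of the 5 probe sets of Ebf1, 3 were called, and the dimmest was at the floor in both groups. Pou2af1, the B cell coactivator OBF-1 that works with octamer-binding factors, read 10.50 and 10.29 in Ly6D+ CLP, against 2.48 on both Ly6D- CLP arrays. It thus appeared out of the floor, with a difference of 7.92 (SE 0.24, limma adjusted p = 1.01e-06). Foxo1, which acts with EBF1 and drives the recombinase genes, read 9.27 and 9.72 in Ly6D+ CLP, against 5.80 and 5.69 in Ly6D- CLP (difference 3.75, SE 0.38, limma adjusted p = 0.0018), with 1 of its 4 probe sets called. Spib, an Ets family factor of B cells, read 6.85 and 5.51 in Ly6D+ CLP, against 2.63 and 3.16 in Ly6D- CLP (difference 3.28, SE 0.43, limma adjusted p = 0.00615). Array weights ended the Spib call (limma adjusted p = 0.0527).

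The factors that act before Ebf1 were already present without Ly6D. Ikzf1, which encodes Ikaros and is needed for all lymphoid cells, differed by 0.03 and read between 11.91 and 12.08 on the 4 arrays. Tcf3, which encodes E2A, read 9.18 and 8.67 in the Ly6D+ group, and 9.32 and 7.88 in the Ly6D- group, so the groups overlapped (difference 0.33, limma adjusted p = 1). Spi1, which encodes PU.1, differed by -0.25. None of 8 antagonists of E proteins and EBF1 was called, which is near the background of 1.45% over all genes and says little of them. Id2, an inhibitor of E proteins, read 8.79 and 9.01 in the Ly6D+ group, and 8.68 and 8.48 in the Ly6D- group (difference 0.32, limma adjusted p = 1). Id3, of the same family, read 4.18 and 4.93 in Ly6D+ CLP, against 3.58 and 2.77 in Ly6D- CLP (difference 1.38, limma adjusted p = 0.0975), and the median over the 5 members above the floor was 1.18.

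Pax5, Irf4 and Lef1 each differed between the Ly6D+ arrays. Pax5 read 6.17 on Ly6D+ CLP array 1 and 3.41 on array 2, against 3.03 and 2.83 in Ly6D- CLP (difference 1.86, SE 0.74, limma adjusted p = 0.418). Irf4, a factor of pre-B and plasma cells, read 5.94 and 2.95 in Ly6D+ CLP, against 2.35 and 2.50 in Ly6D- CLP (difference 2.02, limma adjusted p = 0.425). Lef1, a factor of pro-B cells, ran the other way between the arrays, at 3.23 and 6.10 in Ly6D+ CLP, against 2.49 and 2.46 in Ly6D- CLP (difference 2.19, limma adjusted p = 0.349). In each case 1 Ly6D+ array stood near the Ly6D- arrays. Without Ly6D+ CLP array 2 the difference was 3.24 for Pax5 and 3.52 for Irf4, and without Ly6D+ CLP array 1 it was 3.62 for Lef1. Each of these fits leaves the array on which the gene was high as the only Ly6D+ sample. They thus cannot show whether the gene rises. Ikzf3, which encodes Aiolos and rises later in B cell development, was at the floor in both groups. Over the whole list, the median difference was 0.71, against 0 over all genes and 0.03 over the 10789 genes above the floor on at least 1 CLP array.

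**Figure D1:**
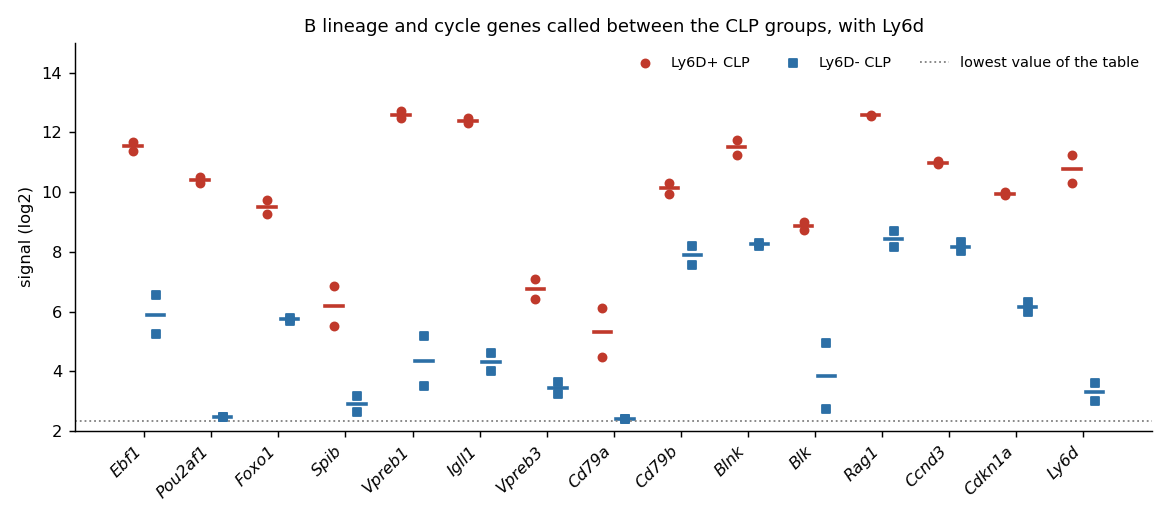
Log2 signal of 14 called genes and of Ly6d on each array of Ly6D+ CLP (circles) and Ly6D- CLP (squares). Short lines are group means and the dotted line is the lowest value of the table. Vpreb1, Igll1 and Pou2af1 lie above 10 on both Ly6D+ CLP arrays and below 5.5 on both Ly6D- CLP arrays.

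The pre-B receptor had the largest share of calls of the lists, 53.8% against 1.45% over all genes. This share too is partly built in, since its list holds Vpreb1, a marker named beforehand, and was chosen with earlier results known. Of its 13 measured genes 7 rose in Ly6D+ CLP and none fell, with a median difference of 2.24. The surrogate light chain led them. Vpreb1, its variable-like part, read 12.71 and 12.47 in Ly6D+ CLP, against 3.51 and 5.196 in Ly6D- CLP (difference 8.24, SE 0.48, limma adjusted p = 7.92e-05), or 301-fold. The probe set may also read the near-identical Vpreb2, which has no row of its own here. Igll1, which encodes the other part, λ5, read 12.47 and 12.31 in Ly6D+ CLP, against 4.61 and 4.02 in Ly6D- CLP (difference 8.07, SE 0.44, limma adjusted p = 5.27e-05), or 269-fold. Its other probe set was dim, between 2.37 and 3.15, and was not called. The bright one carries a suffix that Affymetrix gives to probe sets that may cross-hybridise. Vpreb3, a partner of the receptor during assembly, read 7.09 and 6.40 in Ly6D+ CLP, against 3.25 and 3.65 in Ly6D- CLP (difference 3.29, limma adjusted p = 0.000947).

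The signalling chain of the receptor moved as well. Cd79a, which encodes Igα, read 6.13 and 4.47 in Ly6D+ CLP and was at the floor in Ly6D- CLP, at 2.42 and 2.39 (difference 2.90, SE 0.49, limma adjusted p = 0.0252). Cd79b, which encodes its partner Igβ, was well expressed in both groups, at 10.31 and 9.93 in the Ly6D+ group, and 7.56 and 8.20 in the Ly6D- group. The rise of 2.24 was called (SE 0.37, limma adjusted p = 0.0242), but without Ly6D- CLP array 1 it was 1.92 and the call ended (0.0502). Blnk, the adaptor that links the receptor to its effectors, read 11.73 and 11.26 in Ly6D+ CLP, against 8.31 and 8.18 in Ly6D- CLP (difference 3.25, limma adjusted p = 0.0101). Blk, a Src family kinase of B cells, read 8.999 and 8.72 in Ly6D+ CLP, against 2.75 and 4.94 in Ly6D- CLP (difference 5.02, SE 0.57, limma adjusted p = 0.00303). With array weights the calls of Vpreb3, Cd79a, Cd79b and Blnk ended (limma adjusted p of 0.0976, 0.140, 0.229 and 0.175), while those of Vpreb1, Igll1 and Blk held. Ighm, the heavy chain that completes the receptor, differed by 0.23 (limma adjusted p = 0.991) and read between 12.17 and 12.87 on the 4 arrays. In uncommitted lymphoid cells, transcripts can start at the unrearranged locus, so this level is no sign of a finished heavy chain.

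The start regions of the genes that rose together in this list are shown because EBF1, E proteins and octamer factors are known to act on B lineage promoters. Of the 11 called genes of the transcription factor and pre-B receptor lists, 9 had a promoter in the RefSeq table (GRCm38.p6), each from 250 bases before to 50 bases after the start. Both strands were searched for the EBF core CCCNNGGG, the E-boxes CAGGTG and CAGCTG, and the octamer ATGCAAAT, which occur in 13.7%, 20.2%, 16.3% and 1.74% of all 32851 promoters of that length. The 5 promoters of the pre-B receptor list are given 5′ to 3′ on the gene's strand, with matches in capitals. They are Vpreb1 at chr16:16869206-16869505 (minus strand), Igll1 at chr16:16863936-16864235 (minus), Vpreb3 at chr10:75948050-75948349 (plus), Cd79a at chr7:24897247-24897546 (plus) and Blnk at chr19:40994172-40994471 (minus).
Vpreb1: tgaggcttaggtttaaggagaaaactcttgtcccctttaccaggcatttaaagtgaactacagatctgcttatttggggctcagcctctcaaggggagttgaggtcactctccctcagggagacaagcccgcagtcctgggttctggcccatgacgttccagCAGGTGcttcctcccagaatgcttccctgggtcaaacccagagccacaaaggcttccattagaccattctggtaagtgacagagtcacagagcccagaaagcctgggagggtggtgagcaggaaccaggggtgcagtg
Igll1: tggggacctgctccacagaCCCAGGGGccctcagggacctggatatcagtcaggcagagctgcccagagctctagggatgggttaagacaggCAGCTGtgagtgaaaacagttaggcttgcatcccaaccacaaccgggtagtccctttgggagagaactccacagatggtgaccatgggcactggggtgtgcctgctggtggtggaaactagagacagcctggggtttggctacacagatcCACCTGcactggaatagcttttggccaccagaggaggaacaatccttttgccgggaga
Vpreb3: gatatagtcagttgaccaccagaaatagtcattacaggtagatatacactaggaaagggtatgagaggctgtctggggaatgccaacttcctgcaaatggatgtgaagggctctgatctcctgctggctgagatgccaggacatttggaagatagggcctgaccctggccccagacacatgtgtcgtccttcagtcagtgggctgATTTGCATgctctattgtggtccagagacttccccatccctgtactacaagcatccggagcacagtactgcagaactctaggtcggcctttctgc
Cd79a: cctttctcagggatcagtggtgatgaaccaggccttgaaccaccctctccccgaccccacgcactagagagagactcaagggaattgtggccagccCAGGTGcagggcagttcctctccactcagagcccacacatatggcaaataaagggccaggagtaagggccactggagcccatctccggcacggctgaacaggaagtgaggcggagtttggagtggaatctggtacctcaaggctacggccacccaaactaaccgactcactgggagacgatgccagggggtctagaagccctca
Blnk: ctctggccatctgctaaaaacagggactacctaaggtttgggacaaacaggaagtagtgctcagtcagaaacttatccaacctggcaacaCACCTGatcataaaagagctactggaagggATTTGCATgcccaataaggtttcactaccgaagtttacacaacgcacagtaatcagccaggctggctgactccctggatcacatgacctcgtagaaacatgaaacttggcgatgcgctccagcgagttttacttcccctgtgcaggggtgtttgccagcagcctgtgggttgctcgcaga
Vpreb1 and Igll1 stand next to each other, with start regions 5270 bases apart on the same strand, and both held a CAGGTG E-box, as did Cd79a and Blnk. Igll1 also held the EBF core and a CAGCTG E-box, and Vpreb3 and Blnk held the octamer on the minus strand of the printed sequence. Foxo1 held 1 EBF core and Spib 2 that overlap, while the promoters of Ebf1 (2 starts) and Pou2af1 held none of these letters. A match describes the letters and not binding.

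Of 11 genes of V(D)J recombination and end joining, Rag1 alone was called. With 1 call, the share of 9.09% says little against the 1.45% over all genes. Rag1, which encodes a subunit of the recombinase, read 12.55 and 12.58 in Ly6D+ CLP, against 8.69 and 8.15 in Ly6D- CLP (difference 4.15, SE 0.80, limma adjusted p = 0.0482). The groups lay well apart, yet leaving out any of the 4 CLP arrays ended the call (adjusted p from 0.0524 to 0.0988, differences from 3.88 to 4.42). The replicate block ended it too (0.0612). Rag2, the other subunit, read 8.92 and 9.06 in the Ly6D+ group, and 8.76 and 6.40 in the Ly6D- group (difference 1.41, limma adjusted p = 0.5). Dntt, the terminal transferase that adds bases at the joints, was bright in both groups, at 13.98 and 14.02 in the Ly6D+ group, and 14.09 and 14.004 in the Ly6D- group (difference -0.05, limma adjusted p = 1).

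Of 15 measured surface genes of the B lineage 3 were called higher (20%, against 1.45% over all genes). Ly6d, which the sort selected, is one of them, and the other 2 were Cd24a and Bst1. Cd24a, the heat stable antigen, read 13.71 and 13.80 in Ly6D+ CLP, against 12.80 and 12.74 in Ly6D- CLP, and all 3 of its probe sets were called (difference 0.98, SE 0.18, limma adjusted p = 0.0404). Its call ended without Ly6D+ CLP array 2 (0.94, adjusted p = 0.0954), Ly6D- CLP array 1 (1.01, 0.0523) or Ly6D- CLP array 2 (0.95, 0.0745), and with the replicate block (0.0538). Bst1, the surface enzyme BP-3 of B cell precursors, read 5.13 and 4.97 in Ly6D+ CLP, against 2.32 and 3.05 in Ly6D- CLP (difference 2.37, limma adjusted p = 0.0248). The Bst1 call ended without Ly6D- CLP array 1 (2.001, limma adjusted p = 0.0515). A difference of -0.28 was found for Ptprc, the source of the B220 epitope, and Cd72, an inhibitory co-receptor, differed by 0.33, neither of them called. None of 9 genes of MHC class II presentation was called, which is near the background of 1.45% for a list of this size.

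Of the genes of growth control, Ccnd3 and Cdkn1a were called. Ccnd3, which encodes the D-type cyclin that pro-B cells depend on, read 11.04 and 10.93 in Ly6D+ CLP, against 8.32 and 8.01 in Ly6D- CLP (difference 2.82, SE 0.43, limma adjusted p = 0.0155). It was the only call among 18 genes of IL-7 receptor signalling, and its 2 dimmer probe sets were not called. Averaging the 3 probe sets gave 0.74 and ended the call (limma adjusted p = 0.0982), as did array weights (0.335). Cdkn1a, which encodes the cycle inhibitor p21, read 9.91 and 9.99 in Ly6D+ CLP, against 5.98 and 6.32 in Ly6D- CLP (difference 3.795, SE 0.21, limma adjusted p = 6.1e-05). Both of its probe sets were called. It was the only call among 30 cell cycle genes, whose median difference was 0.46. With 1 call each, the shares of 5.56% and 3.33% say little against the 1.45% over all genes. Mki67, a marker of cycling cells, read 12.39 and 12.90 in the Ly6D+ group, and 12.00 and 11.90 in the Ly6D- group (difference 0.69, limma adjusted p = 0.512). Ccna2, which encodes cyclin A2, differed by 1.497 (limma adjusted p = 0.0758). Without Ly6D+ CLP array 1, which leaves the array with the higher Ccna2 value as the only Ly6D+ sample, it differed by 1.97. Its dimmer probe set was called higher in the fit over single probe sets (2.03, limma adjusted p = 0.0254).

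Of 8 GIMAP genes, a cluster of small GTPases of lymphocyte survival, 3 were called higher (37.5%, against 1.45% over all genes). Gimap4 read 11.09 and 11.42 in Ly6D+ CLP, against 7.80 and 3.84 in Ly6D- CLP (difference 5.43, SE 1.05, limma adjusted p = 0.0483). The Ly6D- arrays were themselves far apart for this gene. Gimap7 rose by 2.18 (limma adjusted p = 0.0448) and Gimap9 by 1.08 (limma adjusted p = 0.0458). All 3 calls stood at the threshold. They ended without Ly6D+ CLP array 1, with changes of 5.60, 1.76 and 0.87 (limma adjusted p of 0.0588, 0.0842 and 0.0871), in the order Gimap4, Gimap7 and Gimap9. The Gimap4 call also ended without Ly6D+ CLP array 2 (5.27, adjusted p = 0.107), that of Gimap7 without Ly6D- CLP array 2 (2.03, 0.0920) and that of Gimap9 without Ly6D- CLP array 1 (0.99, 0.0830) or with the replicate block (0.0557).

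Among 15 homing and chemokine receptors, Ccr7 and S1pr4 were called higher and none lower (13.3%, against 1.45% over all genes). Ccr7, a receptor that guides lymphocytes to lymphoid tissue, read 5.50 and 6.06 in Ly6D+ CLP, against 3.79 and 2.33 in Ly6D- CLP (difference 2.72, limma adjusted p = 0.0471). S1pr4, a receptor for sphingosine-1-phosphate in blood cells, read 7.92 and 8.28 in Ly6D+ CLP, against 6.81 and 6.07 in Ly6D- CLP (difference 1.66, limma adjusted p = 0.0448). Both calls ended without Ly6D+ CLP array 2 (2.45 and 1.48, limma adjusted p of 0.124 and 0.117), without Ly6D- CLP array 2 (1.99 and 1.29, 0.0797 and 0.0922) and with the replicate block (0.0527 and 0.0538). Ccr9, a receptor of cells that seed the thymus, read 6.26 and 8.42 in Ly6D+ CLP, against 10.18 and 10.51 in Ly6D- CLP. The groups did not overlap, yet the difference of -3.004 was not called (limma adjusted p = 0.222).

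**Figure D2:**
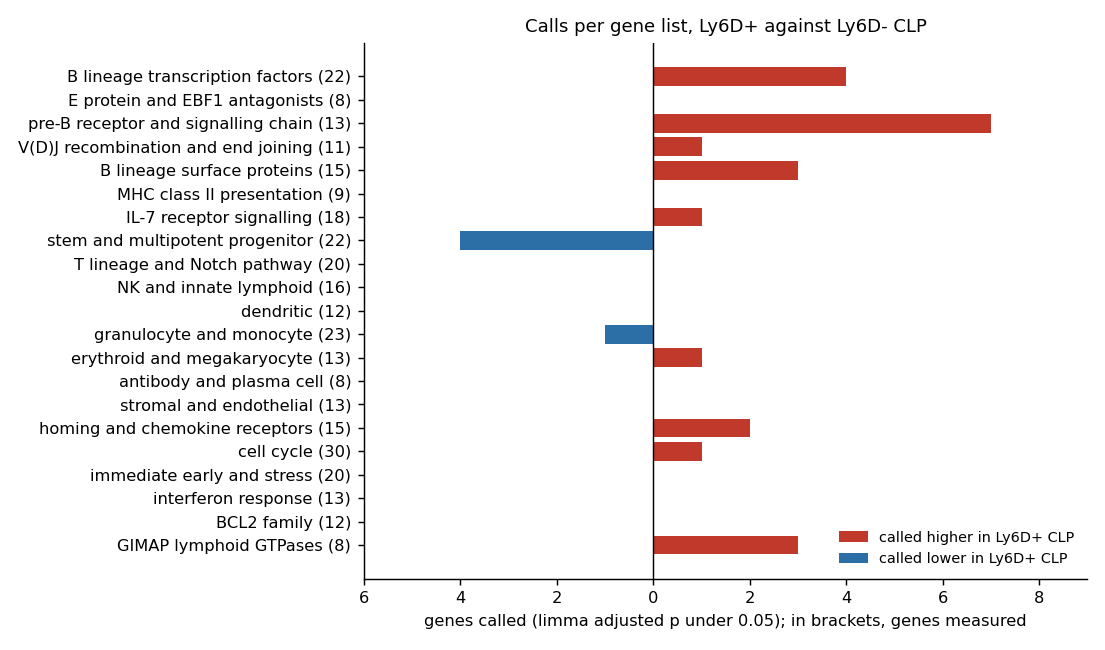
Number of genes called higher (to the right) and lower (to the left) in Ly6D+ CLP than in Ly6D- CLP for each of 21 gene lists, with the number measured in brackets. Calls among B lineage lists are all to the right and those among stem and granulocyte lists all to the left.

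Beyond the lists, the largest rises named unlike proteins. Gfra2, a receptor for the growth factor neurturin, read 10.97 and 10.71 in Ly6D+ CLP, against 3.87 and 2.55 in Ly6D- CLP (difference 7.63, SE 0.53, limma adjusted p = 0.000229). Of its 5 probe sets 2 were called, and the other 3 were dim in both groups. Both called ones carry the same suffix as that of Igll1, as do the brightest probe sets of Zdhhc14, Rab38 and Vldlr named below. Gpat3, an enzyme of triglyceride synthesis, read 8.39 and 9.04 in Ly6D+ CLP and was at the floor in Ly6D- CLP (difference 6.33, limma adjusted p = 0.000157). Chchd10, a mitochondrial protein, read 12.54 and 12.01 in Ly6D+ CLP, against 7.79 and 6.47 in Ly6D- CLP (difference 5.15, limma adjusted p = 0.00259). Prkcb, the protein kinase C of antigen receptor signalling, read 9.70 and 9.38 in Ly6D+ CLP, against 4.51 and 4.52 in Ly6D- CLP (difference 5.03, limma adjusted p = 0.000635). Of the other genes among the 20 largest rises, Gpr25, an orphan receptor, rose by 4.40, Pik3r6, a regulator of PI3 kinase gamma, by 4.27, and the myosin Myo7a by 4.21. Zdhhc14, Bfsp2, Akap12, Mycbp and Mzb1 rose by between 4.06 and 4.14. Mzb1 is a chaperone of the secretory pathway in B cells.

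The largest falls named genes of unlike tissues and roles. Wfdc17, a secreted factor of myeloid cells, read 3.14 and 2.47 in Ly6D+ CLP, against 8.93 and 8.73 in Ly6D- CLP, a difference of -6.03 (SE 0.34, limma adjusted p = 6.1e-05). Ddx4, an RNA helicase known from germ cells, read 2.50 and 4.34 in Ly6D+ CLP, against 8.73 and 8.06 in Ly6D- CLP, and fell by 4.98 (SE 0.48, limma adjusted p = 0.00132). Rab38, a small GTPase of lysosome-related organelles, was at the floor in Ly6D+ CLP and read 6.25 and 7.96 in Ly6D- CLP (difference -4.75, limma adjusted p = 0.000785). Hnf4a, a nuclear receptor best known from liver, was at the floor in Ly6D+ CLP, at 2.64 and 2.32, and read 6.35 and 6.25 in Ly6D- CLP. It fell by 3.82 (SE 0.08, limma adjusted p = 1.18e-07), and 2 of its 4 probe sets were called. Hnf4a read 2.32 on every array outside the CLP groups, so its small SE rests largely on values at the floor.

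Other falls among the 20 largest named transcription factors and cytokine receptors. Glis3, a zinc finger factor, was at the floor in Ly6D+ CLP and read 5.90 and 5.49 in Ly6D- CLP (difference -3.37, limma adjusted p = 6.11e-06). Ikzf2, which encodes Helios of the Ikaros family, read 2.60 and 2.996 in Ly6D+ CLP, against 6.39 and 5.72 in Ly6D- CLP (difference -3.26, limma adjusted p = 0.000501). Il1r1, the receptor for interleukin-1, read 4.74 and 5.36 in Ly6D+ CLP, against 8.39 and 8.10 in Ly6D- CLP (difference -3.20, limma adjusted p = 0.000334). Il17re, a subunit of an interleukin-17 receptor, read 7.05 and 5.15 in Ly6D+ CLP, against 9.19 and 9.80 in Ly6D- CLP (difference -3.40, limma adjusted p = 0.0109). Averaging its 3 probe sets gave -1.08 and ended the call (limma adjusted p = 0.117).

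Among the rest, Hsd3b7, an enzyme of bile acid synthesis, Cpq, a carboxypeptidase, and Dhrs7, a dehydrogenase, fell by 4.48, 4.48 and 3.57. Sh2b2, a signalling adaptor, fell by 4.62 (limma adjusted p = 0.0276) and Vldlr, a lipoprotein receptor, by 3.19 (limma adjusted p = 0.0238). Both of these calls ended without Ly6D+ CLP array 2 (-4.34 and -3.19, limma adjusted p of 0.0728 and 0.0530). Igdcc4, Tmem158, Slc35a5, Gcnt2, Kcnk12, St3gal2 and 4632427E13Rik fell by between 3.34 and 4.13. Of the 4 probe sets of 4632427E13Rik only 1 was called, and the others differed by -1.59, -0.59 and 1.60. For Slc35a5 1 of 5 was called. For 8 of the 20 the Ly6D+ CLP group was at the floor, so their falls are lower bounds. Both ProB arrays were at the floor for 11 of the 20. The share over all genes was 44.4%, but that includes 7404 genes at the floor on all 4 CLP arrays. The 20 had to lie above the floor in Ly6D- CLP, so this share is no matched background and the count is not read further.

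**Figure D3:**
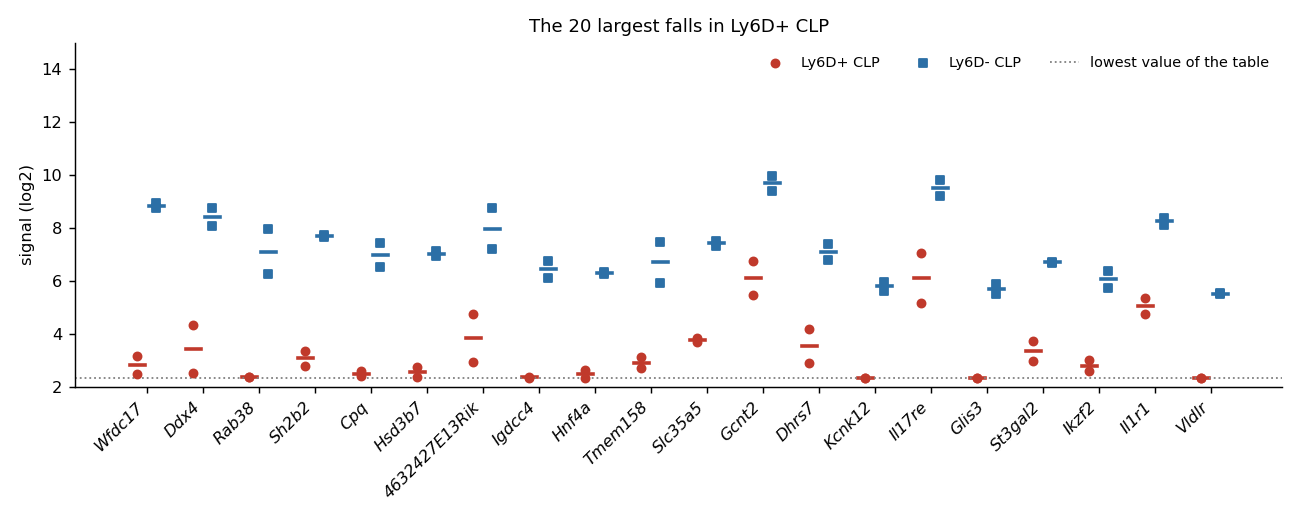
Log2 signal of the 20 genes with the largest called falls on each array of Ly6D+ CLP (circles) and Ly6D- CLP (squares), ordered by the size of the fall. Short lines are group means and the dotted line is the lowest value of the table. Several genes, such as Rab38, Kcnk12, Glis3 and Vldlr, lie on that line in Ly6D+ CLP and above 5 in Ly6D- CLP.

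Of 22 measured stem and multipotent progenitor genes, 4 fell in Ly6D+ CLP and none rose, with a median difference of -0.78. The share called was 18.2%, against 1.45% over all genes. Mycn, a Myc family factor, read 5.48 and 5.85 in Ly6D+ CLP, against 7.84 and 8.56 in Ly6D- CLP (difference -2.54, SE 0.30, limma adjusted p = 0.00372). Lmo2, a bridging factor of stem cell complexes, read 10.10 and 10.38 in Ly6D+ CLP, against 12.17 and 11.78 in Ly6D- CLP (difference -1.73, SE 0.24, limma adjusted p = 0.0101). Robo4, a receptor of stem cell homing, read 4.36 and 3.08 in Ly6D+ CLP, against 5.68 and 6.05 in Ly6D- CLP (difference -2.15, limma adjusted p = 0.0186). Cd34, the sialomucin of early progenitors, read 9.45 and 10.69 in Ly6D+ CLP, against 11.93 and 11.68 in Ly6D- CLP (difference -1.74, SE 0.31, limma adjusted p = 0.0327). The Cd34 call ended without Ly6D- CLP array 1 (-1.61, limma adjusted p = 0.0619). With array weights all 4 calls ended (limma adjusted p of 0.0518 for Mycn, 0.162 for Lmo2, 0.107 for Robo4 and 0.0707 for Cd34).

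Other progenitor genes were not called. Hoxa9, a homeobox factor of progenitors, read 10.55 and 11.07 in Ly6D+ CLP, against 12.83 and 12.79 in Ly6D- CLP. The groups did not overlap (difference -1.995, SE 1.21, limma adjusted p = 0.568). That SE takes in the spread of the graft arrays, which read between 3.37 and 7.61 for this gene. With only the 4 CLP arrays in the fit Hoxa9 was not called either. Kit, the stem cell factor receptor, read 6.78 and 7.06 in Ly6D+ CLP, against 7.83 and 8.32 in Ly6D- CLP (difference -1.16, limma adjusted p = 0.645). Meis1, a partner of Hox factors, differed by -0.86. Satb1, a chromatin organiser of lymphoid progenitors, read 12.17 and 11.78 in the Ly6D+ group and 12.03 and 11.96 in the Ly6D- group (difference -0.02).

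Myeloid transcripts followed 2 patterns. Of 23 granulocyte and monocyte genes, Csf3r was called lower in Ly6D+ CLP and none higher. With 1 call, the share of 4.35% says little against the 1.45% over all genes. The median difference was -1.32, which takes in the genes given below that were high on Ly6D- CLP array 2 alone. Csf3r, the receptor for the granulocyte growth factor G-CSF, read 2.32 and 3.94 in Ly6D+ CLP, against 5.50 and 6.33 in Ly6D- CLP (difference -2.79, SE 0.45, limma adjusted p = 0.0211). Of 4 genes of early granule proteins none was called. Elane, which encodes neutrophil elastase, was at the floor in both groups. The other 3 read higher on both Ly6D- arrays than on both Ly6D+ arrays. The share of all genes that did so was not counted, so this is given by value and not read further. Prtn3, which encodes proteinase 3, read 2.39 and 2.63 in Ly6D+ CLP, against 6.26 and 6.63 in Ly6D- CLP (difference -3.93, limma adjusted p = 0.188). Ctsg, which encodes cathepsin G, read 4.64 and 5.97 in Ly6D+ CLP, against 8.05 and 7.91 in Ly6D- CLP (difference -2.67, limma adjusted p = 0.340). Mpo, which encodes myeloperoxidase, read 10.70 and 11.04 in Ly6D+ CLP, against 12.38 and 12.12 in Ly6D- CLP (difference -1.38, limma adjusted p = 0.842). Mpo was thus bright in both groups. The spread behind these p-values takes in the grafts, but with only the 4 CLP arrays in the fit these genes were not called either. Wild type grafts read 2.42, 3.21 and 6.30 for Prtn3, and 4.31, 7.91 and 9.39 for Mpo.

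The other pattern lay on Ly6D- CLP array 2 alone. S100a8, a calprotectin subunit of neutrophils, read 3.27 and 4.94 in Ly6D+ CLP, against 2.39 and 10.59 in Ly6D- CLP. S100a9, its partner, read 2.78 and 2.48 in Ly6D+ CLP, against 2.32 and 8.95 in Ly6D- CLP. Camp, Ngp, Ltf and Lcn2, which encode proteins of later granules, read between 6.93 and 9.28 on that array and were at the floor on the other 3. None of these 6 genes was called (limma adjusted p from 0.494 to 0.792), and all 6 were without Ly6D- CLP array 1, which leaves array 2 as the only Ly6D- sample (differences from -4.61 to -6.92, limma adjusted p from 4.06e-08 to 0.0103). Over the whole list, 11 and 12 genes lay above the floor in Ly6D+ CLP, against 12 and 18 in Ly6D- CLP. The summed linear signal of the list was 3275 and 3720 in Ly6D+ CLP, against 7832 and 10506 in Ly6D- CLP. Itgam and Cebpa were also at the floor in both groups. Without Ly6D- CLP array 2 the number of genes called was 217 higher and 715 lower, and of the 264 genes called with it 227 were called again. All 7 pre-B receptor genes and the falls of Csf3r, Cd34, Lmo2, Mycn and Robo4 were called without that array, although array weights ended 4 of those 7 calls and those of Cd34, Lmo2, Mycn and Robo4.

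**Figure D4:**
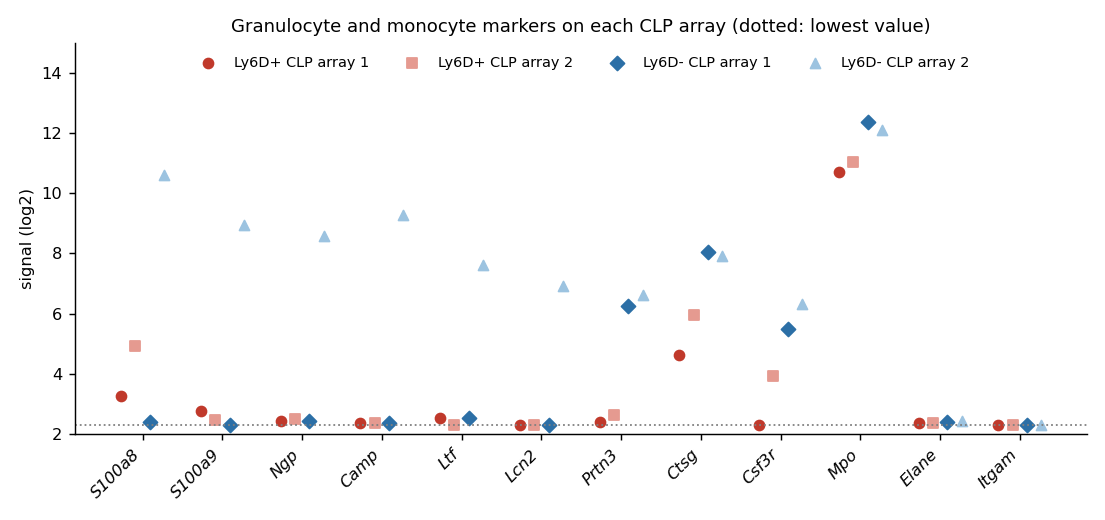
Log2 signal of 12 granulocyte and monocyte markers on each of the 4 CLP arrays, Ly6D+ arrays first; the dotted line is the lowest value of the table. S100a8, S100a9, Ngp, Camp, Ltf and Lcn2 are high on Ly6D- CLP array 2 alone, while Prtn3, Ctsg, Csf3r and Mpo are higher on both Ly6D- CLP arrays than on both Ly6D+ CLP arrays. Of the latter, only Csf3r was called.

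Lists of the other lymphoid fates held no call. With 1.45% of all genes called, this is near the background for lists of 12 to 20 genes and says little of these fates. Of 16 NK and innate lymphoid genes none was called, and 8 were at the floor on all 4 arrays. Nfil3, a factor of NK and innate lymphoid development, read 2.78 and 2.43 in Ly6D+ CLP, at the floor, against 4.31 and 5.41 in Ly6D- CLP (difference -2.25, limma adjusted p = 0.0814). Itgb7, an integrin of gut homing, read 3.19 and 2.99 in Ly6D+ CLP, against 5.25 and 6.33 in Ly6D- CLP (difference -2.69, limma adjusted p = 0.0636). Without Ly6D- CLP array 1 both were called (-2.81 and -3.23, limma adjusted p of 0.0248 and 0.0267), which leaves the array with the neutrophil transcripts as the only Ly6D- sample. Without Ly6D- CLP array 2 neither was (-1.70 and -2.15, limma adjusted p of 0.192 and 0.150). Of 12 dendritic genes and of 20 T lineage and Notch genes none was called, and 5 and 11 of them were at the floor on all 4 arrays. Cd3e, a chain of the T cell receptor complex, was at the floor on all 4 arrays, and Irf8, a factor of dendritic and B cells, differed by 0.15. Lists of antibody, stromal, interferon, immediate early and BCL2 family genes held no call either, at medians from -0.23 to 0. Of 13 erythroid and megakaryocyte genes 1 was called (7.69%), which says little against the 1.45% over all genes. It was Gata1, the erythroid master factor, called higher at low signal. Gata1 read 3.82 and 4.25 in Ly6D+ CLP and was at the floor in Ly6D- CLP (difference 1.42, limma adjusted p = 0.0334). The Gata1 call ended without Ly6D+ CLP array 2 (1.20, limma adjusted p = 0.0940) or either Ly6D- CLP array (1.42, limma adjusted p of 0.0516 and 0.0569).

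ProB and PreB values of these genes follow. No test between ProB and the CLP groups was made, since it would share their arrays. Xist read 10.71 and 11.49 in ProB and was at the floor in CLP. ProB also carried plasma cell transcripts (Jchain at 12.00 and 12.22, Igha at 11.91 and 11.95) and PreB neutrophil ones (S100a8 at 12.02 and 12.85, Ngp at 11.03 and 11.85), and the actin gap was widest in PreB (7.27 and 6.71). The part of these in the values was not tested. Ebf1 read 10.99 and 12.33 in ProB, around its values in Ly6D+ CLP, and Igll1 read 12.93 and 13.47. Pou2af1 read 11.86 and 12.11 in ProB and 13.01 and 12.90 in PreB. Cd79a, still at 6.13 and 4.47 in Ly6D+ CLP, read 8.29 and 7.52 in ProB. Among the progenitor genes, Cd34 was at the floor in ProB, and Flt3, which read alike in both CLP groups, averaged 5.58 in ProB.

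A few called genes were high in Ly6D+ CLP and low both in Ly6D- CLP and in ProB. They were picked after their values were seen. Art4, a blood group antigen, read 5.89 and 6.55 in Ly6D+ CLP, against 3.08 and 2.92 in Ly6D- CLP, and 3.08 on both ProB arrays (Ly6D+ minus Ly6D- CLP 3.22, limma adjusted p = 0.000501). Mst1r, a receptor kinase, read 6.18 and 6.56 in Ly6D+ CLP, against 3.30 and 2.43 in Ly6D- CLP, and 3.06 and 2.77 in ProB (difference 3.50, limma adjusted p = 0.000229). Gpr25 read 7.73 and 8.37 in Ly6D+ CLP, against 4.44 and 2.86 in Ly6D- CLP, and was at the floor in ProB. Fkbp9, a prolyl isomerase, read 5.61 and 5.12 in Ly6D+ CLP and was at the floor in Ly6D- CLP and in ProB (difference 3.04, limma adjusted p = 0.003). These genes were not all particular to Ly6D+ CLP. In the Pax5KO grafts Gpr25 was about as high, at 7.63, 7.60 and 8.41, and Art4 read 4.58, 4.62 and 3.90. Mst1r and Fkbp9 were at the floor there.

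**Figure D5:**
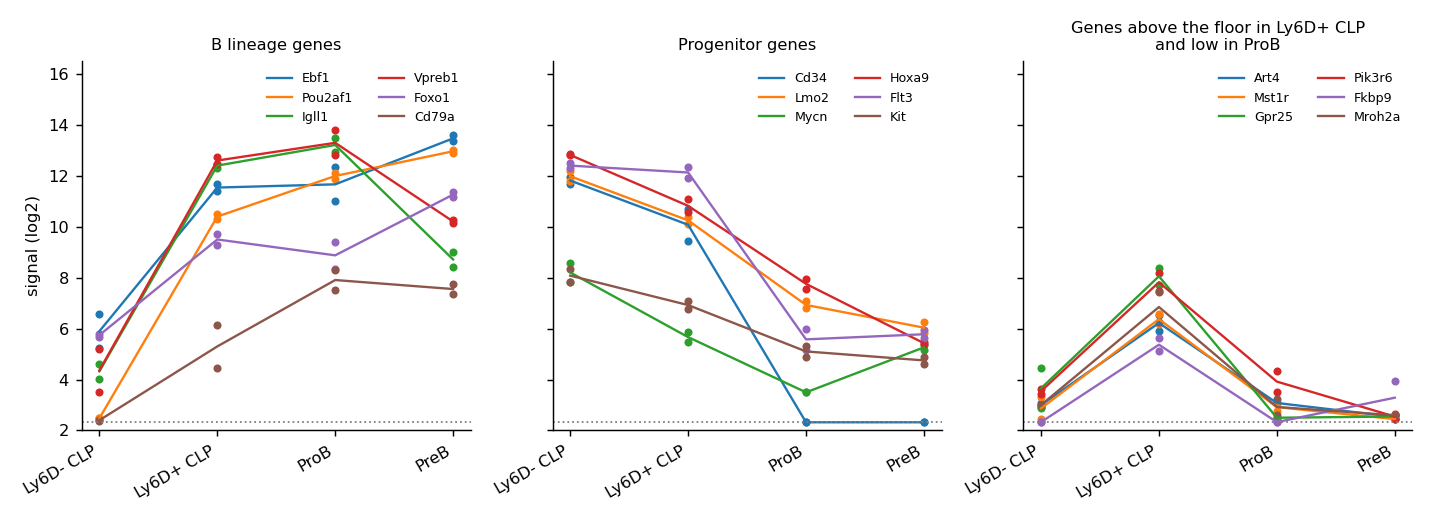
Log2 signal along the stages Ly6D- CLP, Ly6D+ CLP, ProB and PreB (points are arrays, 2 per stage, and lines run through group means) for genes of the B lineage, progenitor genes, and genes that were high in Ly6D+ CLP and low in ProB; the dotted line is the lowest value of the table. Ebf1 in Ly6D+ CLP lies between its 2 ProB values, Pou2af1 is below both of its ProB values, and Cd34 is at the floor in ProB.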

How the data were processed

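Expression was measured with Affymetrix 3' arrays in 14 samples of sorted mouse cells. The authors deposited 1 log2 signal per probe set and array. RMA, GCRMA and limma were used, per the submitters' processing notes, but which of them made the table is not stated, and their versions are not given in the sources used here. The values were not scaled again. Over 56.0% of the probe sets of each array lay within 0.5 of the lowest value, so array medians cannot show whether the arrays share a scale. No detection call was used, and the number of arrays limits the precision.

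Probe sets were named from GEO's platform annotation, with symbols brought up to date by gene ID from RefSeq (GRCm38.p6, 34741 of 34945 matched). Probe sets with several symbols (932), none here (9160) and controls (64) were left out of the tests. A gene took its probe set of highest mean signal. Among 31 named called genes with more than 1 probe set, all were called in 4, and no gene had probe sets called in opposite directions.

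In R 4.3.3, limma 3.58.1 (lmFit and eBayes) fitted the group means over all 14 arrays (8 residual degrees of freedom). The labels call the replicates biological without saying whether they came from separate mice or sorts. Named genes are Ly6d, Ebf1, Vpreb1, Pou2af1, the 20 largest called rises and falls above the floor, and called members of 21 gene lists (321 of 356 entries measured), with list members of known role given by value. The comparison, the lists and the members were chosen with earlier results of these data known. The alternatives tried were other fits, filters, scalings, summaries of probe sets, a replicate block and leaving out each CLP array.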

Additional observations from a re-analysis of the deposited data

How the results depend on the processing

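Every one of the 60 called genes named by rule kept its direction under each of the 14 alternatives that tested it. They include Ly6d, which the sort selected. All had been picked for being called in the main fit, so a kept direction is little support. Only averaged probe sets, both scalings and leaving out an array could change a difference. The other alternatives kept the same group means, so the direction was fixed there. The counts of called genes moved most with the arrays in the fit. With only the 4 CLP arrays, 0 genes were called higher (limma, 1001 genes at an unadjusted p under 0.05) and 1 lower, Ptpro, and all 60 calls ended. Array weights gave 41 higher and 61 lower and ended 27 of the 60 calls, among them Spib, Vpreb3, Cd79a, Cd79b, Blnk, Ccnd3, Cd34, Lmo2, Mycn and Robo4. A fit over single probe sets called 203 probe sets higher and 211 lower, in 382 genes. Leaving out 1 CLP array at a time gave between 217 and 833 higher (without Ly6D- CLP array 2 and Ly6D+ CLP array 1) and between 180 and 715 lower (without Ly6D+ CLP array 2 and Ly6D- CLP array 2), since the lone array of a group is then taken to vary like the other groups, and ended 4 to 8 of the 60 calls. The filters on dim genes and genes at the floor, averaged probe sets, both scalings and the prior with trend moved neither count by over 1.5 times and ended 0 to 5 of the 60. The median over all genes moved by -0.04 with equal array medians. The labels give both CLP groups the numbers 1 and 2. Same-numbered arrays did not deviate together (correlation of deviations 0.003 over 18193 genes). With 2 arrays a group, this cannot show whether same-numbered arrays shared a mouse or a sort. The replicate block gave 190 higher and 178 lower and ended 5 of the 60 calls. Signals near the floor limit what can be seen for genes such as Cd79a, Gata1 and Csf3r.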

Other observations

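Some called genes outside the lists are given here. They were picked after their values were seen, so they say nothing of a pathway. Pde2a, a phosphodiesterase of cyclic nucleotides, read 12.23 and 11.84 in Ly6D+ CLP, against 7.41 and 8.65 in Ly6D- CLP (difference 4.00, limma adjusted p = 0.00128). Akap12, an anchor of protein kinase A, rose by 4.11, Rapgef3, the cyclic AMP sensor EPAC1, by 3.30 (limma adjusted p = 0.0420) and Pkig, an inhibitor of protein kinase A, by 1.99 (limma adjusted p = 0.0361). The Rapgef3 call ended without Ly6D+ CLP array 1 (2.52, limma adjusted p = 0.0685) or either Ly6D- CLP array (3.30 each, 0.0613 and 0.0692), and that of Pkig without Ly6D+ CLP array 2 (1.91, 0.0857) or Ly6D- CLP array 1 (1.76, 0.0711).

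St6gal1, the sialyltransferase that makes the ligand of CD22, read 10.11 and 10.36 in Ly6D+ CLP, against 7.47 and 7.38 in Ly6D- CLP (difference 2.81, limma adjusted p = 0.00502). St3gal2, a sialyltransferase of another linkage, read 3.74 and 2.98 in Ly6D+ CLP, against 6.72 and 6.69 in Ly6D- CLP (difference -3.34, limma adjusted p = 0.00105). Gcnt2, the branching enzyme of the I antigen, fell by 3.59 (limma adjusted p = 0.00129) and B4galnt4 fell by 1.93 (limma adjusted p = 0.00031). Mthfd2, an enzyme of mitochondrial folate metabolism, rose by 2.53 (limma adjusted p = 0.00395), and Hk2, a hexokinase, fell by 2.19 (limma adjusted p = 0.0248). The Hk2 call was lost without Ly6D+ CLP array 2 (-2.18, limma adjusted p = 0.0561).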
